A study of Mus musculus with 7 samples.

Results

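The Ikaros family of zinc finger transcription factors and 3 regulators studied beside it in lymphocytes were followed in natural killer (NK) cells labelled Hhex KO and in Cre control NK cells. The genes were Ikzf1, Ikzf2, Ikzf3, Ikzf5, Bcl11b, Bach2 and Zbtb32, 7 of the 53379 genes in the deposited count table. They were taken by gene symbol, not by a cutoff on their values, though with earlier results of these data known. The genotypes compared, both on C57BL/6, were Hhex KO with 4 libraries and Cre control with 3 libraries, each from splenic NK cells sorted ex vivo by surface markers, given in the labels as C45+CD3-Nk1.1+NKp46+CD49b+. The labels name no treatment, and they state neither the Cre driver, the Hhex allele nor the age of the mice. The libraries are called biological replicates, but nothing says that each came from its own animal. The p-values therefore reflect only how far these libraries spread, which may be technical.

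Ikaros proteins bind DNA through zinc fingers near the N terminus and pair with each other through fingers at the C terminus. In lymphocytes they recruit the NuRD complex, a chromatin remodeller and histone deacetylase, and they both silence and maintain genes. Ikzf1 encodes Ikaros, Ikzf2 encodes Helios, Ikzf3 encodes Aiolos, known for its part in NK cell maturation in mice, and Ikzf5 encodes Pegasus. BCL11B is the zinc finger factor of T cell commitment, BACH2 is a repressor that holds back effector differentiation and binds DNA with small MAF proteins, and ZBTB32 is a BTB zinc finger protein needed for the proliferative burst of mouse NK cells in cytomegalovirus infection.

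Related genes raise the question whether their reads can be told apart, and the coding DNA of 1 zinc finger is printed as an example. It was picked as the finger most alike over the Ikaros family, taking each relative's best match to Ikzf1. The finger lies near the C terminus, among those through which the proteins pair. The 69 bases below run 5′ to 3′ on the coding strand, from GENCODE M21 transcripts on GRCm38, and capitals mark each base that differs from Ikzf1. Ikzf1, Ikzf2 and Ikzf5 are shown, and Ikzf3 and Ikzf4 are not.
Ikzf1: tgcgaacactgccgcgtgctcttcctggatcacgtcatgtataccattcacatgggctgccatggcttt
Ikzf2: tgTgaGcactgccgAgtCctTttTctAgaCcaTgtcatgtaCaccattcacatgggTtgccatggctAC
Ikzf5: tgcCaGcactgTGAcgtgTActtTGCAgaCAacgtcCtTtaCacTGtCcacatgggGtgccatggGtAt

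Measured against Ikzf1, the stretch was identical at 81.2% of bases in Ikzf2 and 68.1% in Ikzf5. On GRCm38 it lies in an exon at chr11:11769411-11769479 on the plus strand for Ikzf1, at chr1:69538864-69538932 on the minus strand for Ikzf2 and at chr7:131391733-131391801 on the minus strand for Ikzf5. The longest run of bases shared by any pair of family transcripts compared was 26, between Ikzf1 and Ikzf3, well short of the 75-base reads. Of all 75-base windows in their annotated transcripts, 0 of 5919 in Ikzf1, 0 of 11969 in Ikzf2 and 0 of 8678 in Ikzf3 occurred on the same strand of another gene. Bcl11b, Bach2 and Zbtb32 likewise shared 0 windows on the same strand. Ikzf5 was the exception, with 628 of 5868 windows shared with Gm10356, and 4618 found on the opposite strand, mostly in Pstk, whose exons overlap 4652 bases of those of Ikzf5.

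Library totals ranged from 10589915 to 18414034 counts in Hhex KO and from 11482273 to 18456404 counts in Cre control. Levels are in CPM, the count of a gene divided by its library's TMM-scaled total in 1000000 counts. A log2 fold change sets Hhex KO over Cre control and is followed by its standard error. Unless another tool is named, p-values come from the quasi-likelihood test of edgeR and were adjusted over 12161 genes by the Benjamini-Hochberg method. The targeted gene, Hhex, fell to 58.0, 56.5, 54.2 and 64.8 CPM in Hhex KO replicates 1 to 4, against 96.1, 95.6 and 93.5 CPM in Cre control replicates 1 to 3 (log2 fold change -0.70 ± 0.10, adjusted p = 0.00768), so reads of the gene remained. Which part of the gene was deleted is not stated, and no value here looks inside it. Its call was lost without Cre control replicate 1 (adjusted p = 0.0516).

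The Hhex KO libraries fell into pairs. The chi-square per degree of freedom between libraries was 10.4 for Hhex KO replicates 2 and 3, 25.9 for replicates 1 and 4, and 62.8 to 71.5 across these pairs, against 14.4 to 16.1 among Cre control libraries. The summed level of the nuclear-retained RNAs Malat1, Neat1 and Kcnq1ot1 was 1130, 202, 179 and 1058 CPM in Hhex KO replicates 1 to 4, against 804, 315 and 500 CPM in Cre control replicates 1 to 3. Replicate 4 of Hhex KO also carries the sample number 95, while the others are numbered 20 to 28. Of the 8 NK cell markers listed, 0 passed the test in either direction. Their summed level was 10495 to 13898 CPM in Hhex KO and 13358 to 17675 CPM in Cre control. Gzma and Prf1, which encode contents of cytotoxic granules, together made up most of that sum. Gzma was at 4760 to 7156 CPM in Hhex KO and 6449 to 9689 CPM in Cre control, and Prf1 at 1333 to 2053 CPM and 1971 to 2440 CPM. Of 11 T cell markers, 8 were tested and 1 rose (Trbc2), with a median log2 fold change of 0.76 over those tested. The summed levels of the 11 were 392 to 456 CPM in Hhex KO and 274 to 324 CPM in Cre control. Cd4, Cd8a and Cd8b1 were at most at 2.91 CPM, so the other listed genes carried most of the sum. Of 7 B cell markers, 3 were tested and 2 rose (Cd22 and Cd79b), with summed levels of 65.1 to 117 CPM in Hhex KO and 15.5 to 22.4 CPM in Cre control. Cd22 made up most of that sum, at 60.4 to 88.9 CPM in Hhex KO and 10.1 to 19.4 CPM in Cre control. Of 8 myeloid markers, 6 were tested and 0 passed, but their summed level was 65.8, 358, 30.7 and 15.9 CPM in Hhex KO replicates 1 to 4, against 54.8, 132 and 48.3 CPM in Cre control replicates 1 to 3. Hhex KO replicate 2 stood far above the others, chiefly through Lyz2 (200.3 CPM) and S100a8 (112 CPM). Of 5 markers of cycling cells, 3 rose, with summed levels of 160 to 508 CPM in Hhex KO and 43.7 to 128 CPM in Cre control. Over all tested genes, 2.68% rose and 1.87% fell by the same test.

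Of the 7 genes, 6 had enough reads to be tested and 0 were called in either direction, where 4.56% of all tested genes were (2.68% higher and 1.87% lower). At an unadjusted p under 0.05, 1 of the 6 passed, Ikzf2, where 18.5% of all tested genes did. DESeq2 called 1, also Ikzf2, as higher, where it called 9% of all genes (5.14% higher and 3.86% lower). The median log2 fold change of the 6 was -0.09, beside 0.02 over all genes tested. Ikzf2 and Ikzf3 lay above 0, and Ikzf1, Ikzf5, Bcl11b and Bach2 below it.

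**Figure D1:**
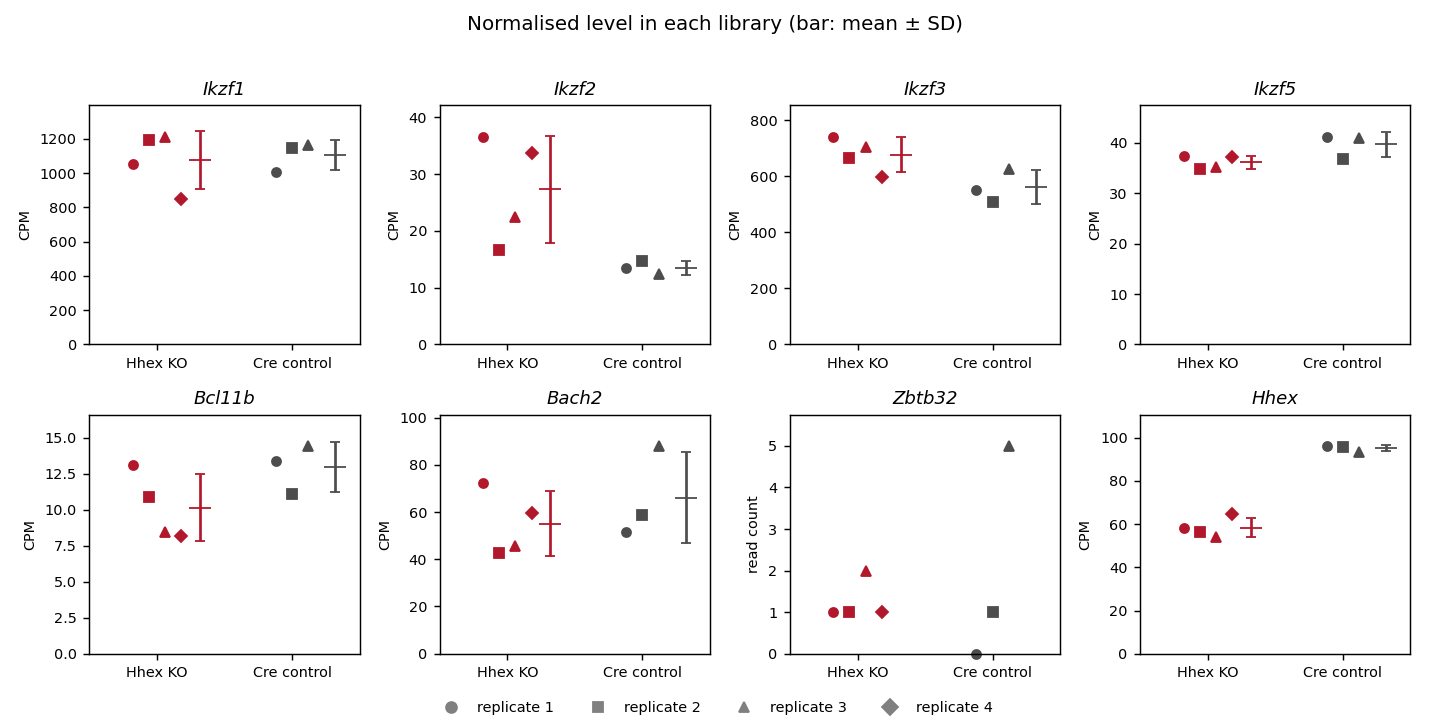
Level of each gene by library, in CPM with the mean ± SD beside the points, and in read counts for Zbtb32. Marker shape gives the replicate number; Ikzf2 and Hhex are the panels in which Hhex KO and Cre control do not overlap.

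Ikaros and Aiolos were the abundant members. Ikzf1 (ENSMUSG00000018654.17, chromosome 11, 11685003 to 11772926, plus strand, on GRCm38) was read at 1050.5, 1194, 1212 and 846 CPM in Hhex KO replicates 1 to 4, against 1007, 1146 and 1166 CPM in Cre control replicates 1 to 3. The Hhex KO libraries lay on both sides of the Cre control libraries, with replicate 4 below all others. The log2 fold change was -0.04 ± 0.16 (95% interval -0.40 to 0.32, adjusted p = 0.938), which leaves room for a fold of 0.757 to 1.25. Its sign turned without Hhex KO replicate 4, at 0.05, and without Cre control replicate 3, at 0.0016.

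Ikzf3 (ENSMUSG00000018168.8, chromosome 11, 98464902 to 98546031, minus strand) was read at 741, 666, 704 and 597 CPM in Hhex KO replicates 1 to 4, against 550, 508 and 626 CPM in Cre control replicates 1 to 3. Hhex KO replicates 1, 2 and 3 were above every Cre control library, and Hhex KO replicate 4 lay below Cre control replicate 3. The log2 fold change was 0.27 ± 0.13 (95% interval -0.03 to 0.58, adjusted p = 0.334), or 1.21-fold. Across the alternatives it stayed between 0.20 and 0.36 and was never past 0.05.

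Helios was a minor member that differed most between the genotypes. Ikzf2 (ENSMUSG00000025997.13, chromosome 1, 69531214 to 69687245, minus strand) was read at 36.6, 16.6, 22.4 and 33.7 CPM in Hhex KO replicates 1 to 4, against 13.4, 14.7 and 12.3 CPM in Cre control replicates 1 to 3. These came from 565, 290, 380 and 381 reads in Hhex KO and 179, 167 and 228 reads in Cre control. All 4 Hhex KO libraries were above all 3 Cre control libraries, a separation seen in 19.3% of all tested genes, and the Hhex KO libraries spread widely while the Cre control libraries lay close together. The means were 27.3 ± 9.42 CPM (SD, n = 4) in Hhex KO and 13.5 ± 1.19 CPM (SD, n = 3) in Cre control. The log2 fold change was 1.02 ± 0.27 (95% interval 0.41 to 1.63), or 2.03-fold, with an unadjusted p of 0.00438 and an adjusted p of 0.0708, so it did not pass 0.05 with edgeR.

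Whether Ikzf2 was called turned on the processing. It was past 0.05 with DESeq2 (adjusted p = 0.00794), with no filter on low counts (0.0366), without Hhex KO replicate 2 (0.0191) and, in a model chosen after seeing the data, with nuclear-retained RNA as a covariate (0.00226). In the other 12 of 16 alternatives it was not, at adjusted p up to 0.278. The direction was the same in all 16, with log2 fold changes of 0.63 to 1.20. The lowest was with limma-voom and sample quality weights (adjusted p = 0.0513), and without Hhex KO replicate 4, the library whose number stands apart, the value was 0.90 (adjusted p = 0.111). Hhex KO replicate 2, without which Ikzf2 was called, was the library with the least Ikzf2 in Hhex KO and the most myeloid marker RNA. The part of that RNA in the result was not tested.

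**Figure D2:**
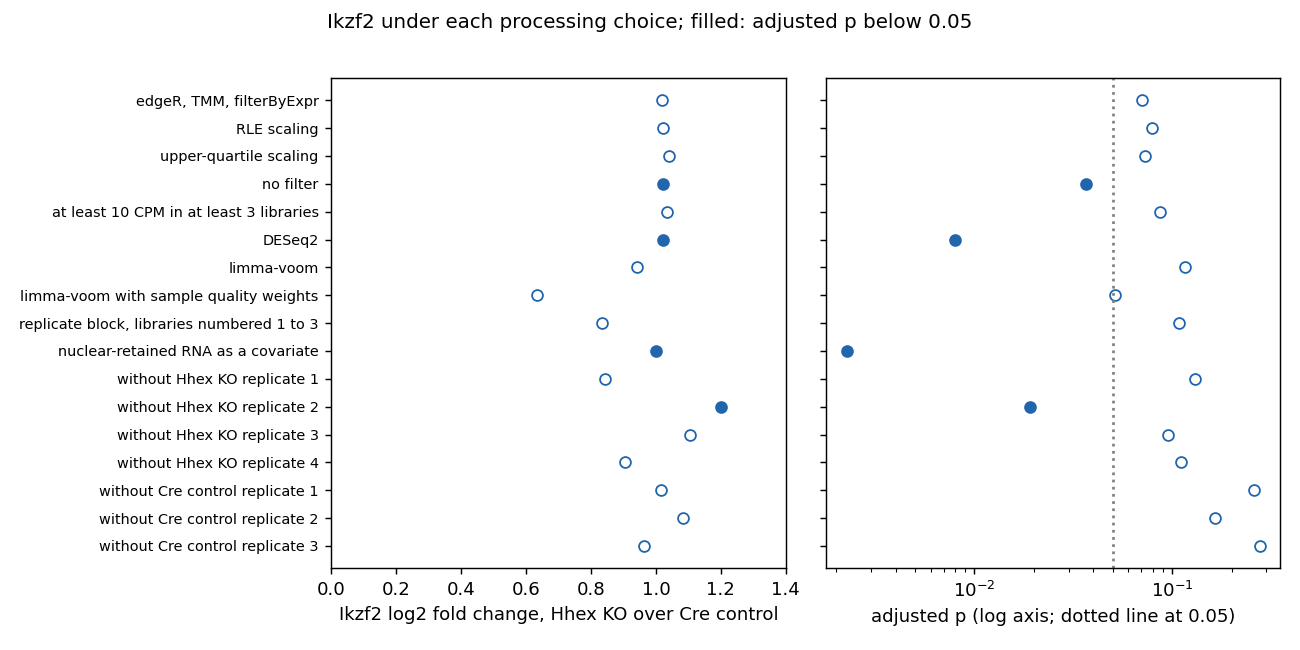
Ikzf2 with edgeR as described and under the 16 alternatives, with the log2 fold change of Hhex KO over Cre control at left and the adjusted p on a log axis at right. Filled points are past 0.05; all log2 fold changes are above 0, and 4 of the alternatives are past the threshold.

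The 2 highest Ikzf2 libraries, Hhex KO replicates 1 and 4, were also those with the most nuclear-retained RNA. Hhex KO replicates 2 and 3 had the least of these RNAs, and 16.6 and 22.4 CPM of Ikzf2. Cre control replicate 1, with 804 CPM of these RNAs, had 13.4 CPM of Ikzf2. With this RNA as a covariate, in the model chosen after seeing the data, the log2 fold change was 1.00, and 1.02 without it. The part of nuclear-retained RNA in the Ikzf2 difference was not tested. Helios is also known from regulatory T cells, whose defining factor gene Foxp3 had 1, 3, 2 and 0 reads in Hhex KO replicates 1 to 4 and 1, 3 and 0 reads in Cre control replicates 1 to 3; this gene was chosen after the values were seen. The summed T cell markers were at 392, 404, 417 and 456 CPM in Hhex KO replicates 1 to 4, against 324, 304 and 274 CPM in Cre control replicates 1 to 3, the highest being Hhex KO replicate 4. The part of the higher summed T cell, B cell and cycling markers in the Ikzf2 difference was not tested. In sorted bulk cells, more cells with Ikzf2 RNA and more of it per cell cannot be told apart.

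Pegasus varied least between libraries, relative to its level. Ikzf5 (ENSMUSG00000040167.16, chromosome 7, 131388652 to 131410521, minus strand) was read at 37.3, 34.9, 35.2 and 37.2 CPM in Hhex KO replicates 1 to 4, against 41.2, 36.9 and 41.0 CPM in Cre control replicates 1 to 3. The groups overlapped through Cre control replicate 2. The log2 fold change was -0.14 ± 0.10 (95% interval -0.36 to 0.09, adjusted p = 0.553). Its value is uncertain because most of its exons lie opposite those of Pstk, which had 145 to 191 reads in Hhex KO and 111 to 197 reads in Cre control, and no source used here gives the strand setting of the counting.

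Levels can be set beside each other only per length of the gene's exons. On that scale, CPM per kilobase of exon, the order was the same in both genotypes for the most abundant genes, with Ikzf1 at 186 ± 29.3 in Hhex KO (SD, n = 4) and 192 ± 14.98 in Cre control (SD, n = 3), and Ikzf3 at 77.3 ± 7.02 in Hhex KO and 64.1 ± 6.82 in Cre control. In Hhex KO these levels stood at the 98.1 and 95.02 percentiles of tested genes for Ikzf1 and Ikzf3. Ikzf5, at 6.32 ± 0.22 in Hhex KO and 6.94 ± 0.43 in Cre control, and Bach2, at 5.54 ± 1.39 in Hhex KO and 6.65 ± 1.94 in Cre control, did not differ from each other beyond their spread. The Ikzf5 level is uncertain, because most of its exons lie opposite those of Pstk and some windows are shared with Gm10356. Ikzf2 stood at 2.35 ± 0.81 in Hhex KO and 1.16 ± 0.10 in Cre control, and Bcl11b at 1.25 ± 0.28 in Hhex KO and 1.60 ± 0.21 in Cre control. Library by library, Ikzf2 was above Bcl11b in all 4 Hhex KO libraries, by as little as 1.43 against 1.34 in replicate 2. On this scale it was below Bcl11b in all 3 Cre control libraries. That order rests on exon lengths of 11613 bases for Ikzf2 and 8111 bases for Bcl11b, and it was not tested. In CPM, Ikzf2 was at 13.4, 14.7 and 12.3 in Cre control replicates 1 to 3, and Bcl11b at 13.4, 11.1 and 14.4.

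Shares of the Ikaros family were read from levels per length and were not tested. The per-length sum of Ikzf1 to Ikzf5 was 272 ± 33.4 in Hhex KO (SD, n = 4) and 264 ± 18.02 in Cre control (SD, n = 3), within the spread of the libraries. Ikzf1 made up 65.4% to 71.2% of it in Hhex KO and 71.0% to 75.1% in Cre control, and these ranges overlapped. The share of Ikzf3 was 26.2% to 30.6% in Hhex KO and 21.96% to 25.6% in Cre control, and that of Ikzf2 was 0.493% to 1.30% in Hhex KO and 0.377% to 0.479% in Cre control. The ratio of Ikzf1 to Ikzf3 was 2.15, 2.72, 2.61 and 2.15 in Hhex KO replicates 1 to 4, against 2.78, 3.42 and 2.82 in Cre control replicates 1 to 3. The groups did not overlap, although Hhex KO replicate 2 and Cre control replicate 1 lay close together. The ratio was chosen after the values were seen and is given without a test or a background of other ratios.

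**Figure D3:**
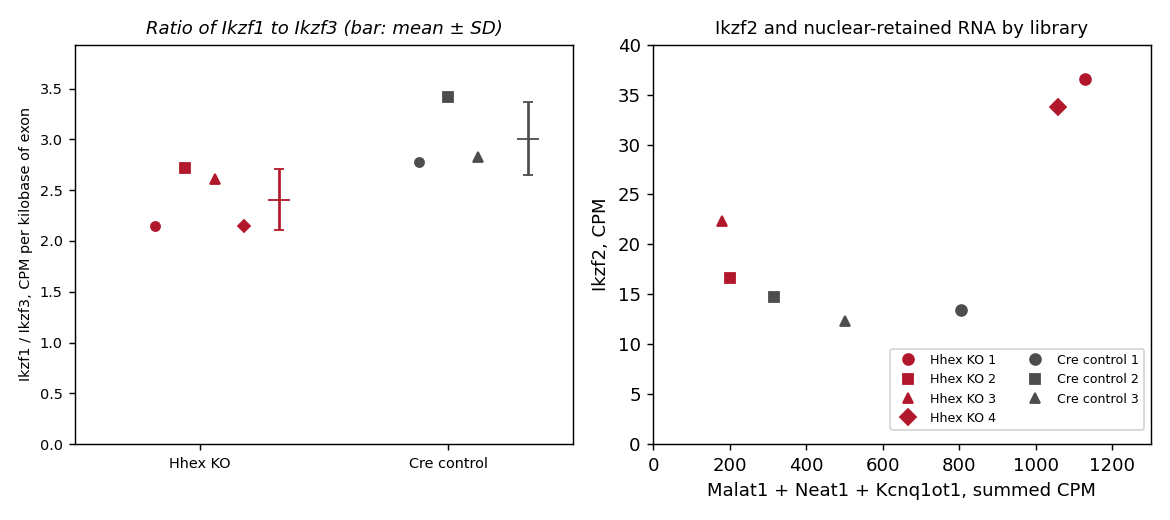
Left, the ratio of Ikzf1 to Ikzf3 per kilobase of exon in each library, 2.15 to 2.72 in Hhex KO and 2.78 to 3.42 in Cre control, with the mean ± SD. Right, Ikzf2 in CPM against the summed CPM of Malat1, Neat1 and Kcnq1ot1; Hhex KO replicates 1 and 4 are highest on both axes.

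Bcl11b (ENSMUSG00000048251.15, chromosome 12, 107910403 to 108003602, minus strand), the T cell commitment factor, was low in these cells. It was read at 13.1, 10.9, 8.48 and 8.15 CPM in Hhex KO replicates 1 to 4, against 13.4, 11.1 and 14.4 CPM in Cre control replicates 1 to 3. Hhex KO replicates 2, 3 and 4 were below every Cre control library, and replicate 1 was within their range. The log2 fold change was -0.35 ± 0.20 (95% interval -0.81 to 0.11, adjusted p = 0.409), and it stayed below 0 in all alternatives, between -0.51 and -0.27, with adjusted p of 0.0893 and above. The summed T cell markers were higher in every Hhex KO library than in any Cre control library. The part of T cell RNA in the Bcl11b values was not tested.

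Bach2 (ENSMUSG00000040270.16, chromosome 4, 32238804 to 32586108, plus strand) was read at 72.5, 42.5, 45.7 and 59.6 CPM in Hhex KO replicates 1 to 4, against 51.6, 58.9 and 88.0 CPM in Cre control replicates 1 to 3. The groups overlapped widely, with the highest and the lowest library of all in different groups. The log2 fold change was -0.27 ± 0.24 (95% interval -0.80 to 0.27, adjusted p = 0.636), so a fold between 0.573 and 1.21 was within the interval. Without Cre control replicate 3, the highest library, the log2 fold change was 0.0019 (adjusted p = 0.998). Bach2 is also a B cell gene, and the summed B cell markers were at 117, 76.0, 96.3 and 65.1 CPM in Hhex KO replicates 1 to 4, against 15.5, 22.3 and 15.7 CPM in Cre control replicates 1 to 3. Hhex KO replicate 1 was highest in this sum and in Bach2 among the Hhex KO libraries, while Cre control replicate 3, the highest Bach2 library of all, was among the lowest. Cd22 made up most of these sums, and the part of these markers in Bach2 was not tested. Without Hhex KO replicate 1 the log2 fold change was -0.43 (adjusted p = 0.357).

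Zbtb32 (ENSMUSG00000006310.10, chromosome 7, 30589681 to 30598909, minus strand) was barely read and was not tested. It had 1, 1, 2 and 1 reads in Hhex KO replicates 1 to 4, against 0, 1 and 5 reads in Cre control replicates 1 to 3. The 0 in Cre control replicate 1 allows up to 0.225 CPM, taking 3 reads as the limit of a count of 0, which covers counting error only. A difference in Zbtb32 was not detectable at this depth.

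**Figure D4:**
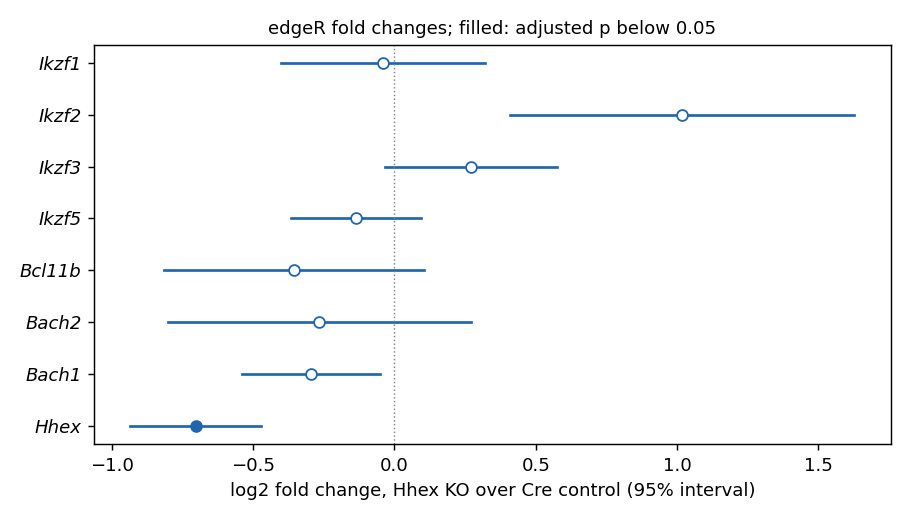
Log2 fold change of Hhex KO over Cre control with its 95% interval from edgeR, for the 6 tested genes, the BACH2 relative Bach1 and the targeted gene Hhex. The interval of Ikzf2 lies above 0 and those of Bach1 and Hhex below it, and Hhex alone, filled, is past an adjusted p of 0.05.

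The relatives outside the 7 genes were Ikzf4, Bcl11a and Bach1. Ikzf4, which encodes Eos, had 4, 2, 3 and 2 reads in Hhex KO replicates 1 to 4 and 1, 4 and 1 reads in Cre control replicates 1 to 3, too few to test. Bcl11a, the paralogue of Bcl11b, was at 0.354 to 2.98 CPM in Hhex KO and 0.300 to 2.99 CPM in Cre control (adjusted p = 0.938). Bach1, which competes for the same MAF partners, was at 57.8, 54.9, 51.0 and 47.7 CPM in Hhex KO replicates 1 to 4, against 61.9, 64.3 and 68.5 CPM in Cre control replicates 1 to 3. Its groups did not overlap, a separation seen in 19.3% of all tested genes. The log2 fold change of -0.30 ± 0.11 was not past 0.05 (adjusted p = 0.178).

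Relatives, partners and described targets of these factors were read in 8 lists holding 81 genes, of which 76 were tested. In all, 1 rose and 5 fell, 7.89% of those tested, beside 4.56% of all genes. All of these were BTB zinc finger relatives of Zbtb32 (3 lower) or described targets (1 higher and 2 lower). The lists were chosen with earlier results of these data known, and their share was not tested. The NuRD complex, which Ikaros proteins recruit, had 0 of 14 members called, with a median log2 fold change of 0.05. Mta3, a NuRD subunit, came nearest, at 88.9 to 100.1 CPM in Hhex KO and 121 to 126 CPM in Cre control (log2 fold change -0.38 ± 0.10, adjusted p = 0.0634). It was past 0.05 with DESeq2 (adjusted p = 0.00347), which called 9% of all genes, and not with limma-voom (0.0653). Gatad2a, another subunit, stood at -0.34 ± 0.11 on the log2 scale (adjusted p = 0.127, 0.022 with DESeq2 and 0.122 with limma-voom). The CtBP and SIN3 corepressors had 0 of 8 called and a median of -0.05, with Sap30 at 0.37 ± 0.18 (adjusted p = 0.321) and Sin3a at -0.22 ± 0.12 (0.384).

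The BAF remodelling complex, of which BCL11 proteins are subunits, had 0 of 18 members called and a median log2 fold change of 0.07. Brd9, a bromodomain subunit, had 0.62 ± 0.22 (adjusted p = 0.172), and Smarcc1, a core subunit, had 0.41 ± 0.17 (adjusted p = 0.255). The ubiquitin ligase with cereblon, through which thalidomide-type drugs degrade Ikaros and Aiolos in human cells, had 0 of 5 called and a median of 0.13, with Crbn at 0.23 ± 0.13 (adjusted p = 0.391) and Cul4b at 0.13 ± 0.11 (adjusted p = 0.618). The 7 BACH2 dimer partners and competitors had 0 called and a median of -0.30. Of these, Nfe2l1, a cap-n-collar factor, had -0.43 ± 0.12 (adjusted p = 0.0925, 0.0185 with DESeq2 and 0.0929 with limma-voom). Mafk, a small MAF protein, had -0.65 ± 0.20 (adjusted p = 0.117, 0.0453 with DESeq2 and 0.0994 with limma-voom).

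Among 16 BTB zinc finger relatives of Zbtb32, 3 fell, 0 rose and 13 did not pass the test, with a median log2 fold change of -0.15. Bcl6, a transcriptional repressor of lymphocytes, was at 22.6, 19.8, 20.9 and 22.8 CPM in Hhex KO replicates 1 to 4, against 30.6, 30.3 and 33.8 CPM in Cre control replicates 1 to 3 (log2 fold change -0.55 ± 0.11, adjusted p = 0.0299). Zbtb10 fell by 0.66 ± 0.15 on the log2 scale (adjusted p = 0.0409), and Zbtb25 fell by 0.48 ± 0.11 (adjusted p = 0.0481). All 3 were lost when any single Cre control library was left out, at adjusted p of 0.0965 to 0.202, and without Hhex KO replicate 2 or 3, at 0.0747 to 0.0965. Bcl6 and Zbtb25 were also lost without Hhex KO replicate 1 (0.0502 and 0.0723) and with no filter on low counts (0.0521 and 0.0904). Zbtb10 was lost with a filter of 10 CPM in 3 libraries (0.056), and Zbtb25 with upper-quartile scaling (0.0586) and with limma-voom (0.0534).

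Of 12 genes described as targets of these factors in lymphocytes, 8 were tested, 1 rose and 2 fell, where 4.56% of all tested genes were called. The median log2 fold change of the 8 was -0.37, beside 0.02 over all genes tested. Nfil3, an NK lineage factor gene that BCL11B restrains in T cell progenitors, was at 61.5, 53.3, 41.7 and 38.8 CPM in Hhex KO replicates 1 to 4, against 97.3, 87.6 and 114.6 CPM in Cre control replicates 1 to 3. It fell by 1.03 ± 0.18 on the log2 scale (adjusted p = 0.015). Kit, a receptor tyrosine kinase of progenitors, fell by 1.42 ± 0.28 (adjusted p = 0.0283), and Myc, which Ikaros represses in B cell precursors, rose by 0.56 ± 0.13 (adjusted p = 0.0481), at 65.9 to 85.8 CPM in Hhex KO and 44.5 to 56.1 CPM in Cre control. Nfil3 was lost without Cre control replicate 1 or 3 (adjusted p = 0.0766 and 0.0887), and Kit without Cre control replicate 2 or 3 or Hhex KO replicate 1 or 2 (0.0572 to 0.119). Myc was lost with any 1 library left out except Hhex KO replicate 4 (0.0785 to 0.216), and Kit also with no filter (0.065).

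**Figure D5:**
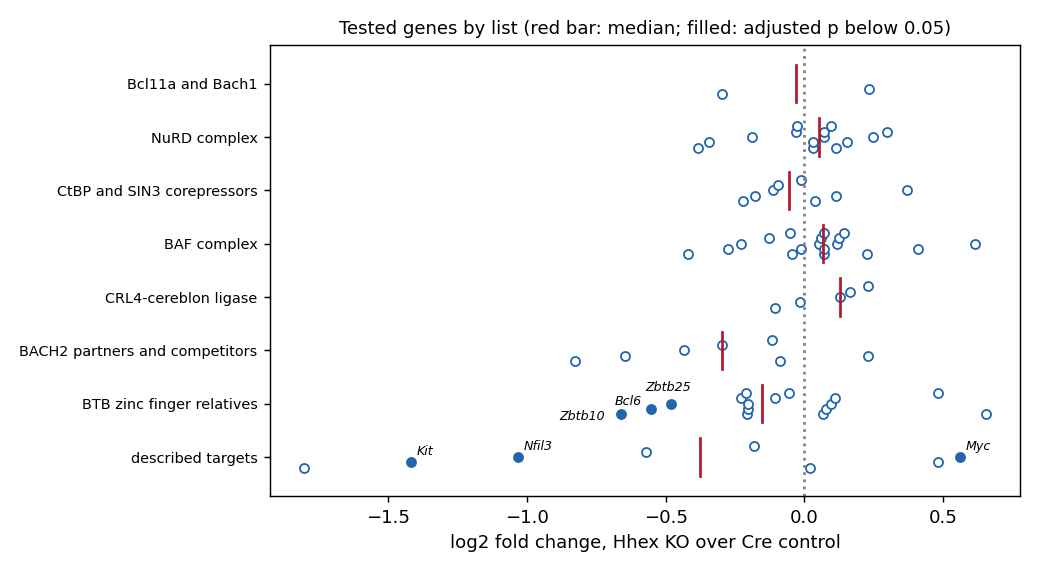
Log2 fold change of Hhex KO over Cre control for each tested gene of the 8 lists, with the median of each list as a bar. Filled, named points are past an adjusted p of 0.05: Zbtb10, Bcl6, Zbtb25, Kit and Nfil3 below 0 and Myc above it.

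The genes whose levels followed Ikzf2 most closely over the 7 libraries were Tmem131l, Tada2a and Brms1l, with Pearson correlations of log2 CPM of 0.985, 0.975 and 0.972. They had log2 fold changes of 0.46 ± 0.13, 0.55 ± 0.18 and 0.53 ± 0.19, none past 0.05 (adjusted p = 0.0796, 0.139 and 0.160). For Ikzf3 they were Wdr59, Phf19 and Ttc28, at 0.974, 0.973 and 0.969, also not past 0.05 (adjusted p = 0.291, 0.202 and 0.142). These 6 values were picked as the highest among the tested genes, the libraries share the groups and their other differences, and they are given as a description only.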

How the data were processed

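RNA was sequenced from 4 Hhex KO and 3 Cre control libraries as 75-base single-end reads of a directional kit, per the labels' protocols. The authors deposited raw counts per gene, without normalization; STAR, featureCounts and mm10 are named without versions, per the submitters' processing notes, and no source used here gives the strand setting or the annotation. Identifiers were named from a table of gene names without their version (99.8% matched). Gene positions, exonic lengths and transcripts came from GENCODE M21 on GRCm38, the assembly also called mm10.

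Genes were kept by edgeR's filter by group (minimum count 10, minimum total 15) and tested with edgeR 4.0.16 in R 4.3.3 (TMM, robust quasi-likelihood F test, no covariate); a gene was called at an adjusted p below 0.05. Standard errors are the fold change divided by the square root of F, and 95% intervals use the test's degrees of freedom. The fit was tested on simulated counts. It called 7 of 67 genes changed 1.5-fold, 33 of 67 changed 2-fold and 51 of 66 changed 4-fold in the right direction. False calls were 3.19% of its calls. Most changes of 1.5-fold in those counts were therefore missed. Whether these shares hold for the deposited libraries, of which those of Hhex KO fell into pairs, was not tested. The genes, lists and tests were chosen with earlier results of these data known. Named genes are the 7 genes, Hhex, the relatives, up to 4 called genes per list (otherwise the 2 of smallest p), and the 3 genes most correlated with each of the 2 genes of smallest p (average log2 CPM of at least 2, leaving out predicted, clone and pseudogene names). Alternatives were scaling by RLE or upper quartile, leaving out the filter, at least 10 CPM in 3 libraries, DESeq2 1.42.0, limma-voom 3.58.1, the same with quality weights per library, a replicate block, leaving out each library and, added later, a nuclear-retained RNA covariate.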

Additional observations from a re-analysis of the deposited data

Results flagged for a closer look

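Mafk was at 95.8 CPM in Hhex KO replicate 1, far from the other Hhex KO libraries, which lay between 54.4 and 61.4 CPM. The gap made up 0.832 of the range of the group, just above the critical value of 0.829 for 4 samples. It was the 1 gap found among the 25 named genes checked, and chance gives about 1 in 20. Without that library the log2 fold change of Mafk was -0.87 (adjusted p = 0.0155).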

How the results depend on the processing

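The number of genes called by edgeR, 326 higher and 228 lower in Hhex KO, depended on the settings. Higher calls numbered 186 with a filter of 10 CPM in 3 libraries, 625 with DESeq2, 1534 with limma-voom and quality weights and 1029 with the nuclear-retained RNA covariate, which was chosen after seeing the data. Lower calls numbered 469 with DESeq2, 1325 with quality weights and 927 with that covariate. Leaving out 1 library gave 91 to 527 higher and 50 to 291 lower calls. Of the 7 genes, 1 was called higher, Ikzf2, with no filter, with DESeq2 and with the covariate, and 0 to 1 with 1 library left out; 0 were called lower in any alternative. Hhex kept its direction with 1 library left out, at log2 fold changes of -0.76 to -0.67, and missed 0.05 without Cre control replicate 1. The sign of Ikzf1 turned with quality weights (0.061) and with the replicate block (0.055), and with 1 library left out its values ran from -0.11 to 0.054. Those of Bach2 ran from -0.43 to 0.0019 and those of Bcl11a, read at a few CPM, from -0.27 to 1.39. The alternatives were read for 25 of the named genes, without Zbtb32, Ikzf4 and the genes picked by correlation. Of 399 values of these genes under the alternatives, 328 kept direction and side of the threshold, 39 lost the call, 23 gained one and 9 turned sign. The cause of these changes was not tested. No scaling moved the median of all genes by over 0.1.

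The replicate numbers were not taken as pairs. Deviations of same-numbered libraries from their group means correlated at 0.326 and 0.479 for numbers 1 and 2 and at -0.031 for number 3, and Hhex KO replicate 3 correlated best with Cre control replicate 2 (0.193). With the replicate block, on libraries numbered 1 to 3, 499 genes were higher and 275 lower, Ikzf2 had 0.83 (adjusted p = 0.108), and Bcl6, Zbtb10 and Zbtb25 had adjusted p of 0.0504, 0.0769 and 0.0777. At 10589915 to 18456404 counts per library, Zbtb32 and Ikzf4 were too shallow to test.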
